A study of Mus musculus with 58 samples.

Results

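The cells described here are the 18 single cells with the highest and the 18 with the lowest level of Pvalb, the gene that encodes parvalbumin, among the 54 cells that passed the study's quality control, of 58 in all. They were chosen by their Pvalb level in CPM, the Pvalb count over the cell's total count times 1000000, so every Pvalb value below is a description with no test. They are called Pvalb-high and Pvalb-low, and the 18 cells between them middle cells. The study took parvalbumin (PV) cells from the ventral subiculum, the output region of the ventral hippocampus. The mice were PV-Cre::Ai9, in which Cre recombinase made under the Pvalb gene switches on the fluorescent Ai9 reporter. Each library is the cytosol of 1 cell drawn into a patch pipette, and most cells carry the labels vrest, rm and cm recorded from them. Age was P35 or P36 in the male cells, from 4 animals, and P40 or P42 in the female cells, from 3 animals. No treatment is labelled, and all cells share the genotype.

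No label ties a cell to its animal, so cells were not used as replicates. The counts of the cells of 1 side were summed within each of 4 pools of equal sex and age, the male pools P35 and P36 and the female pools P40 and P42, and the comparison runs across these pools. The Pvalb-high side held 5, 1, 9 and 3 cells of these pools in that order, which is kept throughout, and the Pvalb-low side 3, 8, 3 and 4. That makes 12 female and 6 male Pvalb-high cells and 7 female and 11 male Pvalb-low cells. The difference between the sides within the male P36 pool rests on 1 Pvalb-high cell, male P36 cell 3, which also held the most Vip, a marker of another interneuron class, of all cells (2329 CPM). A pool can hold several animals, and the pools share none only if each animal was used at 1 age. Sex and age cannot be told apart, and p-values measure the spread between these pools only.

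Parvalbumin is a small calcium-binding protein that takes up calcium in the cytosol after each action potential. In the hippocampal formation it marks fast-spiking basket and axo-axonic interneurons, which release GABA onto the somata and axon initial segments of principal cells, and it also occurs in some bistratified cells. Its level in these cells is known to change with age and activity, and a Cre reporter records that the gene was once active in a cell rather than how much of its mRNA the cell now holds.

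Pvalb itself spanned a wide range among cells carrying the same reporter. The Pvalb-high cells held 146 to 788 CPM with a median of 225, the middle cells 46.3 to 141 with a median of 86.9, and the Pvalb-low cells 1.18 to 43.6 with a median of 13.05. Every one of the 36 cells had Pvalb reads, from 17 counts in the least to 21078 in the most. By pool, the median of the Pvalb-high cells was 183 CPM in male P35, 323 in the single male P36 cell, 364 in female P40 and 148 in female P42. The Pvalb-low medians in the same order were 4.93, 17.5, 30.5 and 6.70 CPM. The 3 highest cells of all were female P40 cells 8, 7 and 5, and the lowest, female P40 cell 11, came from the same pool. The limits between the sides fell in a continuum: the last Pvalb-high cell, female P42 cell 3, had 145.8 CPM and the first middle cell, male P35 cell 12, had 140.8. At the lower limit the last middle cell, male P35 cell 14, had 46.3 CPM and the first Pvalb-low cell, female P40 cell 10, had 43.6.

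**Figure D1:**
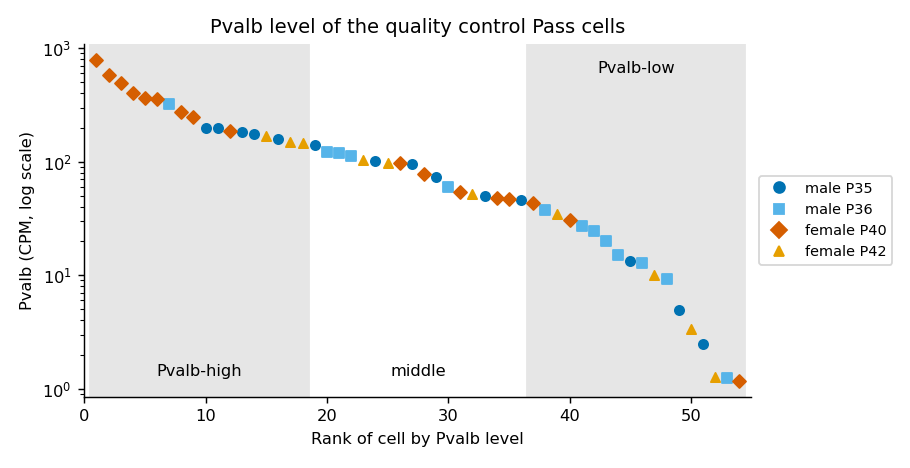
Pvalb level of each of the 54 cells (CPM, log axis) against its rank, with symbols for the 4 pools and grey bands for the 18 highest and 18 lowest cells. The curve has no gap at either limit, and from rank 45 on the cells hold 13.3 CPM or less.

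The start regions of 3 genes are shown because the results turn on them: Pvalb, which chose the cells, Ift27, its neighbour on the chromosome and the gene with the second highest rank correlation with it, and Sst, the somatostatin gene, which was lower in Pvalb-high cells in every pool. Each sequence runs 5′ to 3′ on the gene's strand from 250 bases before to 50 bases after the start that RefSeq gives on GRCm38.p6 (for Pvalb the more upstream of 2), and capitals mark the motif searched for in either direction. Pvalb lies at chr15:78206351-78206650, Ift27 at chr15:78174032-78174331 and Sst at chr16:23890795-23891094, all 3 on the minus strand.
Pvalb: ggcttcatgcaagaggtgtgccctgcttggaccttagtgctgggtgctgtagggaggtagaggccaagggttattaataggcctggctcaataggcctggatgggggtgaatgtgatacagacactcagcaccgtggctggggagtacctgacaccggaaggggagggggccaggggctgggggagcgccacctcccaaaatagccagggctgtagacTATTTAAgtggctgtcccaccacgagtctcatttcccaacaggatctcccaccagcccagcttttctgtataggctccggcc
Ift27: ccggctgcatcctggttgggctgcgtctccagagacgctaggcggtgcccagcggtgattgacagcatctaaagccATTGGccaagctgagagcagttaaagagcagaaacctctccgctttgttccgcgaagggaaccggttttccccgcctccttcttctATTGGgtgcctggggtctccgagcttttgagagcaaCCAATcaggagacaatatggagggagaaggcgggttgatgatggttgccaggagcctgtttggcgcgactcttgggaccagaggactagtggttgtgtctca
Sst: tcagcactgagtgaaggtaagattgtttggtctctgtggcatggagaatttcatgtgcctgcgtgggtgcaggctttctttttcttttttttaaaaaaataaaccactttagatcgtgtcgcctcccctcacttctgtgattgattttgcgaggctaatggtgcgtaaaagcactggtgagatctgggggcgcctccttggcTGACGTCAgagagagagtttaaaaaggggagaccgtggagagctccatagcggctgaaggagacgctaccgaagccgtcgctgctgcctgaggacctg
Capitals in Pvalb mark TATTTAA, an AT-rich run that starts 32 bases before the start, chosen after this sequence was seen, which 4.51% of the 32851 RefSeq promoters of this length hold. Those in Ift27 mark CCAAT on either strand, starting 174, 88 and 52 bases before the start, a short motif that 37.4% of promoters hold at least once. Those in Sst mark TGACGTCA, the palindromic cyclic AMP response element for which this gene is the textbook example, 48 bases before the start and present in 1.79% of promoters. Each window held only its own of the 3 motifs, and a match here is a run of letters and not a measured site.

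Across the transcriptome the sides were not separated by the test. Of 13277 genes tested with edgeR's quasi-likelihood test on the sums, with pool as a block, 0 (0%) had a Benjamini-Hochberg adjusted p under 0.05. At an unadjusted p under 0.05 there were 646 genes (4.87%), 278 higher (2.09%) and 368 lower (2.77%) in Pvalb-high cells. DESeq2 on the same sums called 268 (2.02%), 75 higher (0.565%) and 193 lower (1.45%), and limma on log2(CPM + 1) averaged over cells called 1. At an unadjusted p under 0.05 DESeq2 had 1720 genes (13%). In 4 pools of 4, 893 genes (6.73%) were higher and 1111 (8.37%) lower in Pvalb-high cells. The median difference over all genes was -0.05 on the log2 scale. In simulated sums of the same size, the test called 26 of 50 genes raised 4-fold and 13 of 50 lowered 4-fold. It called 5 of 50 raised 2-fold and 1 of 50 lowered 2-fold, with 3 false calls, so most 2-fold differences were missed there. The simulated spread followed only the trend with level over genes. It held no spread particular to a gene and no sum carried by 1 cell, so detection in the real sums can differ. A test by edgeR of whether the difference varied between the male and female pools called 0 genes (0%), with 393 (2.96%) at an unadjusted p under 0.05. The genes given first below are the 8 of smallest p in each direction among those with 1 direction in every pool. All 16 had an edgeR adjusted p of 0.955, so their values are descriptions and not calls. The DESeq2 p-values given for them come from the same sums by which they were picked.

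Of the genes higher in Pvalb-high cells, Htra1, which encodes a secreted serine protease, had the smallest p. Its level in the Pvalb-high sums was 103, 311, 83.7 and 119 CPM by pool, against 17.7, 52.5, 32.9 and 30.9 in the Pvalb-low sums, so the sums of the sides did not overlap. The log2 difference was 2.10 (SE 0.31, n = 4 pools), which is 4.30-fold. Single Pvalb-high cells held 24.1 to 302 CPM of Htra1 (median 123) and single Pvalb-low cells 1.03 to 123 (median 36.6). None of the 18 Pvalb-low cells reached the Pvalb-high median, and 17 of 18 Pvalb-high cells were above the Pvalb-low median. The middle cells, with a median of 110 CPM, lay near the Pvalb-high cells. Htra1 was the gene that limma called (adjusted p = 0.0492), and DESeq2 gave it an adjusted p of 4.5e-07. The gene lies at chr7:130936111-130985660 on the plus strand of GRCm38.

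Ift27, which encodes a small GTPase of the intraflagellar transport machinery of cilia, had a log2 difference of 2.38 (SE 0.48, n = 4 pools). Its sums were 464, 832, 169 and 388 CPM on the Pvalb-high side and 43.6, 78.3, 117 and 95.5 on the Pvalb-low side, without overlap, and the female P40 pool had the smallest difference. Per cell the range was 19.9 to 809 CPM with a median of 342 against 16.96 to 196 with a median of 74.1, and the middle cells had a median of 226. Ift27 lies on the same strand of chromosome 15 as Pvalb, at chr15:78159463-78174107, 17006 bases from Pvalb at chr15:78191114-78206400, on the side toward which Pvalb is transcribed. The genes do not overlap in GENCODE vM21. Across 54 cells its Spearman correlation with Pvalb was 0.64. It was 0.96 among the 27 male cells, 0.33 among the 27 female cells and 0.72 among the 18 middle cells, which belong to neither side. The female minus male difference of its log2 difference was -2.13, with an unadjusted p of 0.0046 and an adjusted p of 1 by edgeR. Without the cells at or above 100 CPM of Sst, Vip or Slc17a7, which leaves neither male pool with both sides, the log2 difference was 1.22.

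The other 6 genes of this kind were higher in 4 of 4 pools by smaller amounts or in fewer cells. Necab1, which encodes a neuronal EF-hand calcium-binding protein, was at 221, 273, 195 and 363 CPM in the Pvalb-high sums and at 126, 89.3, 76.4 and 184 in the Pvalb-low sums, a log2 difference of 1.19 (SE 0.21). Its cells overlapped widely, from 1.49 to 671 CPM against 1.42 to 364. Gadd45g, a gene induced by growth arrest and DNA damage and by neuronal activity, differed by 1.16 (SE 0.23), with medians per cell of 201 and 135 CPM. Moxd1, which encodes a monooxygenase related to dopamine beta-hydroxylase, differed by 1.41 (SE 0.30), with medians of 137 and 64.5 CPM. Stoml1, a stomatin-like membrane protein gene, differed by 1.02 (SE 0.22), and Pdia3, which encodes a disulfide isomerase of the endoplasmic reticulum, by 0.78 (SE 0.17). Cps1, the mitochondrial carbamoyl phosphate synthetase gene, had the largest fitted log2 difference of the 8, 5.93 (SE 1.27). Its median per Pvalb-high cell was only 1.503 CPM, 6 of 18 Pvalb-high and 0 of 18 Pvalb-low cells reached 10 CPM, and female P40 cell 3 held 75.6% of its Pvalb-high counts. DESeq2's adjusted p for these 6 genes ran from 9.9e-08 for Cps1 to 0.0146 for Pdia3.

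**Figure D2:**
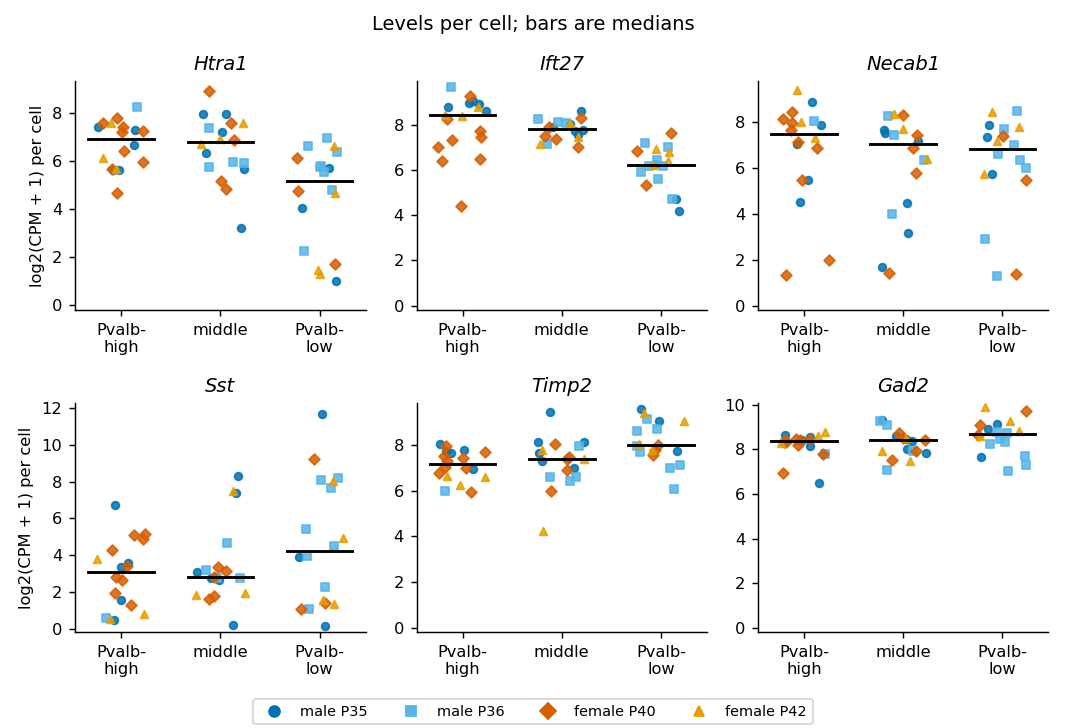
Level of 6 genes per cell as log2(CPM + 1) in the 18 Pvalb-high, 18 middle and 18 Pvalb-low cells, with symbols for the pools and bars for medians. Htra1 and Ift27 are lowest in Pvalb-low cells, Necab1 overlaps across its whole range, Sst is high in a few cells, and Gad2 has medians of 330, 336 and 410 CPM from Pvalb-high to Pvalb-low cells.

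Sst, which encodes the peptide somatostatin and marks another class of interneuron from the medial ganglionic eminence, was lower in Pvalb-high cells in 4 of 4 pools. Its Pvalb-high sums were 15.7, 0.529, 18.8 and 6.41 CPM and its Pvalb-low sums 830, 148, 174 and 71.5, a log2 difference of -4.92 (SE 0.80, n = 4 pools). The sums of the sides did not overlap, but the cells did, with 0.362 to 104 CPM on the Pvalb-high and 0.115 to 3298 on the Pvalb-low side. The difference lay in a subset of cells: 6 of 18 Pvalb-low, 3 of 18 middle and 1 of 18 Pvalb-high cells had at least 100 CPM of Sst. In 11 Pvalb-low cells, 3 middle cells and 0 Pvalb-high cells the Sst level exceeded that of Pvalb. The ranking by Pvalb sets this count in part, since a lower Pvalb level is easier to exceed. Male P35 cell 3 alone held 54.9% of the Pvalb-low Sst counts, at 3298 CPM of Sst, 3779 of Npy and 2.49 of Pvalb, and without it the log2 difference was -3.32. Without the 4 Pvalb-high and 9 Pvalb-low cells at or above 100 CPM of Sst, Vip or Slc17a7 it was 1.50. This setting left both male pools with 1 side only. It also removes cells by their Sst level, 6 Pvalb-low against 1 Pvalb-high, so the turn of sign follows in part from the removal. Sst passed edgeR's threshold when every cell was thinned to 2.05 M counts (M is 1000000; adjusted p = 0.0118), and DESeq2's adjusted p was 7.0e-05. The gene lies at chr16:23889573-23890958.

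Of the other peptide and calcium-binding genes that divide interneurons, Npy and Vip differed through single cells. Npy, the neuropeptide Y gene, had Pvalb-low sums of 951, 2.81, 581 and 3.67 CPM against 5.27, 24.3, 2.62 and 1.24 on the Pvalb-high side, so 3 of 4 pools were lower and male P36 was higher in Pvalb-high cells. The log2 difference of -4.23 (SE 2.46) rested on male P35 cell 3 and female P40 cell 10, at 3779 and 1603 CPM. Vip, which marks interneurons of the caudal ganglionic eminence, was at 2329 CPM in male P36 cell 3 and 809 in male P35 cell 11, both Pvalb-high, and at most 42.1 in every other cell of either side. Its log2 difference was 5.78 (SE 2.68), and -1.66 without the cells at or above 100 CPM of Sst, Vip or Slc17a7. The latter setting left both male pools with 1 side only. It also removed both cells of high Vip, so its value follows in part from the removal. Calb1, the calbindin gene, was lower in Pvalb-high cells in 4 of 4 pools by -1.50 (SE 0.69), with medians per cell of 366 and 718 CPM. Tac1, the gene of substance P, was at medians of 715 and 756 CPM and higher in 2 and lower in 2 pools.

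Genes of GABA production lay close to the background. Gad1, which encodes the larger form of glutamate decarboxylase, was at 3669, 2879, 3602 and 3278 CPM in the Pvalb-high and 2132, 4217, 4118 and 3540 in the Pvalb-low sums, a log2 difference of -0.02 (SE 0.21). Its sign turned in 8 of the 18 alternative settings. Gad1 exceeded Slc17a7, the vesicular glutamate transporter of cortical excitatory neurons, in all 54 cells. Gad2, the gene of the smaller form, was lower in Pvalb-high cells in 4 of 4 pools, with 272, 224, 277 and 372 CPM against 418, 257, 596 and 603, a log2 difference of -0.66 (SE 0.19). Slc32a1, the vesicular GABA transporter gene, differed by 1.06 (SE 0.58) with medians of 32.7 and 16.4 CPM. Of the 12 genes of GABA synthesis and transport, 5 had a positive difference (46.7% of all genes did) and 0 were called by edgeR or DESeq2. At an unadjusted p under 0.05 by edgeR 1, Gad2, was lower (2.77% of all genes). The median of the 12 genes was -0.05, as over all genes.

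Genes linked to fast spiking tended to lie above 0 without passing the test. Of 24 such genes, 20 had a positive difference (46.7% of all genes did) and 0 were called by edgeR or DESeq2. At an unadjusted p under 0.05 by edgeR 3 were higher (2.09% of all genes) and 1, Kcnc2, was lower (2.77% of all genes). The median of the 24 genes was 0.23 against -0.05 over all genes, but -0.40 in the female P40 pool and -0.23 between the 9 highest and 9 lowest cells. The last value rests on 2 pools, each with a single cell on 1 side. Among the potassium channels that let PV cells fire at high rates, Kcnc1 was at medians of 395 and 276 CPM and differed by 0.68 (SE 0.29), while Kcnc2 was at 574 and 657 and differed by -0.41 (SE 0.18). Kcnc1 was higher in 3 of 4 pools and Kcnc2 lower in 4 of 4. Kcna2, an axonal potassium channel gene, differed by 0.81 (SE 0.26) and Scn1a, the sodium channel gene on which PV cell firing depends, by 0.53 (SE 0.21), each higher in 3 of 4 pools. Syt2, the fast calcium sensor of PV terminals, differed by 1.59 (SE 0.81) with medians of 85.6 and 28.7 CPM and was lower in the female P40 pool. The list of 12 PV interneuron markers, which overlaps these, had 6 positive and 6 negative members and a median of 0.07. Its summed level was 4801 to 12036 CPM in Pvalb-high cells, with a median of 9279, and 3570 to 13692 with a median of 9163 in Pvalb-low cells.

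**Figure D3:**
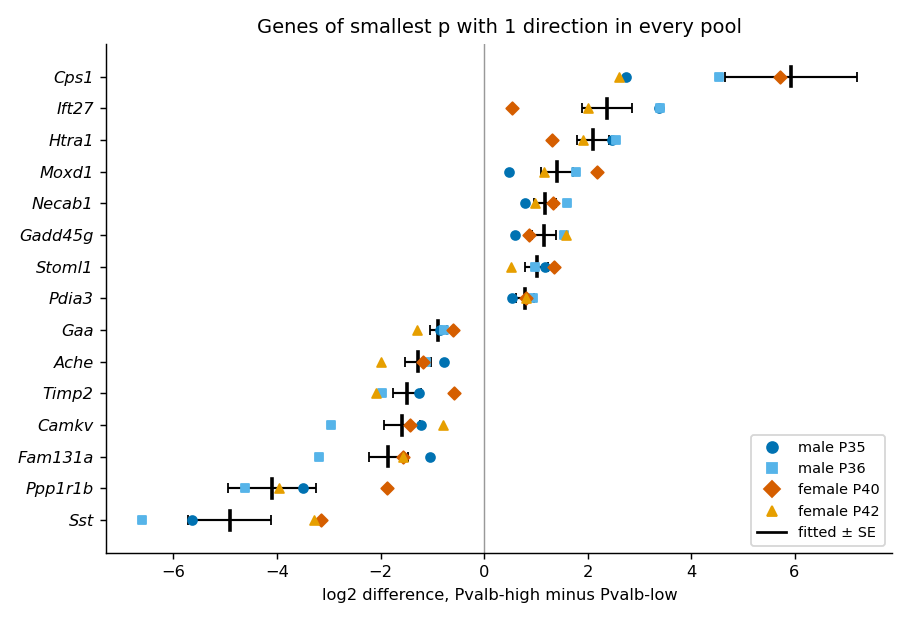
Log2 difference, Pvalb-high minus Pvalb-low, of 15 of the 16 genes of smallest p with 1 direction in every pool: symbols are log2((CPM + 1)/(CPM + 1)) in each of the 4 pools, black bars the edgeR estimate and whiskers its SE. The pools of Gaa and Pdia3 lie close together and those of Cps1 and Sst spread over several log2 units; the added 1 pulls the symbols of low genes such as Cps1 toward 0.

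Behind Sst, 6 further genes of the same kind were lower in Pvalb-high cells in 4 of 4 pools. Timp2, which encodes a tissue inhibitor of metalloproteinases, was at 198, 63.7, 148 and 95.0 CPM in the Pvalb-high and at 475, 252, 221 and 409 in the Pvalb-low sums, a log2 difference of -1.49 (SE 0.28). Only 1 of 18 Pvalb-high cells was above the Pvalb-low median of 252 CPM. Gaa, the lysosomal acid alpha-glucosidase gene, was at 478, 442, 416 and 254 CPM against 868, 761, 633 and 622, which do not overlap, and differed by -0.89 (SE 0.17). Ache, the acetylcholinesterase gene, differed by -1.28 (SE 0.25), with medians per cell of 71.9 and 176 CPM. Camkv, which encodes a kinase-like protein of synaptic vesicles that binds calmodulin, differed by -1.59 (SE 0.35), with medians of 97.5 and 256. Fam131a differed by -1.85 (SE 0.38), with medians of 47.0 and 68.2 CPM. Ppp1r1b, which encodes a phosphatase inhibitor regulated by dopamine, differed by -4.09 (SE 0.84), and female P42 cell 9 held 59.0% of its Pvalb-low counts. DESeq2's adjusted p for these genes lay at or below 0.00205.

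Markers of the choroid plexus epithelium, the cell layer that makes cerebrospinal fluid, had negative differences as a group. A list of 20 such markers was added after these values were seen and has no test. Of its 16 members tested, 16 had a negative difference (46.7% of all genes had a positive one) and 0 were called by edgeR. DESeq2 called 10 of the 16 lower (1.45% of all genes). At an unadjusted p under 0.05 by edgeR 11 were lower (2.77% of all genes). The median of the 16 was -4.24 and lay between -5.40 and -1.35 in the 19 settings tried. In 4 of 4 pools 9 of these markers were lower in Pvalb-high cells (8.37% of all genes). Their summed level was 6.46 to 1047 CPM with a median of 84.9 in Pvalb-high cells, 21.6 to 4049 with a median of 126 in middle cells and 26.5 to 16450 with a median of 462 in Pvalb-low cells. It was at or above 100 CPM in 7, 10 and 13 of 18 cells in that order, and the highest sum was that of female P42 cell 9. Ttr, the transthyretin gene and the most abundant marker of this layer, was present in all 36 cells of both sides, at medians of 18.1 and 153 CPM, and differed by -2.78 (SE 0.67), with the male P35 pool at 230 against 224 CPM. Enpp2 differed by -1.59 (SE 0.39) and Clic6 by -5.70 (SE 1.37). Of the defining markers, Folr1 was at 0 in 13 Pvalb-high and 10 Pvalb-low cells and Aqp1 in 16 and 15. Otx2, a homeobox gene of this layer that was also in the list of perineuronal net genes, was at no more than 0.735 CPM in any Pvalb-high cell and at up to 242 in Pvalb-low cells. Without the female P42 pool the median of the list was -3.50, and the part of these markers in the other differences was not tested.

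Markers of other brain cells were present in cells of both sides. The excitatory neuron list had 2 of 10 positive members, 0 called by edgeR, and a median of -1.83. Its median was -0.27 without the cells at or above 100 CPM of Sst, Vip or Slc17a7, with both male pools left with 1 side only. Slc17a7 is itself a member of this list, so that change follows in part from the removal. Slc17a7 was at or above 100 CPM in 1 Pvalb-high, 3 middle and 4 Pvalb-low cells. Fezf2, a transcription factor of deep-layer projection neurons, differed by -4.45 (SE 1.47), lower in 4 of 4 pools. In female P42 its sums were nearly equal, at 0.233 and 0.254 CPM. Its medians per cell were 0.432 and 1.04 CPM, and male P35 cell 10 held 43.3% of its Pvalb-low counts. Summed per cell, the excitatory markers ran from 39.6 to 672 CPM with a median of 185 in Pvalb-high and from 37.7 to 1397 with a median of 171 in Pvalb-low cells. The oligodendrocyte list had 0 of 9 positive members and a median of -1.04, though its summed level per cell had a median of 673 CPM on the Pvalb-high and 402 on the Pvalb-low side, and its median turned to 0.32 without the cells at or above 100 CPM of Slc17a7. The microglia list had 5 of 12 positive members with medians of its sum of 482 and 207 CPM, the astrocyte list 3 of 10 with 833 and 778, and the blood list 1 of 5 with 91.4 and 38.6. Endothelial and mural markers were near 0, with medians of their sum of 0.683 and 0.534 CPM and highest values of 46.5 and 89.7. The part of these cells' RNA in the differences was not tested.

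Ion channel, GABA receptor and glutamate receptor lists had medians between -0.15 and 0.22, and the list of peptide and transmitter receptors lay lower. Of 37 potassium channel genes 20 had a positive difference, with a median of 0.04, and of 15 calcium channel genes 7, with a median of -0.13. Among 14 GABA receptor genes 10 were positive and the median was 0.17. Gabrd, the delta subunit of extrasynaptic receptors, differed by 0.66 (SE 0.23). Gabra5, an alpha subunit also known for extrasynaptic receptors in the hippocampus, was lower in Pvalb-high cells in 4 of 4 pools, at 12.4, 1.90, 3.53 and 2.68 CPM against 35.6, 41.8, 31.2 and 42.1. Its log2 difference was -3.30 (SE 0.82), with a DESeq2 adjusted p of 0.000299. Among 26 glutamate receptor genes 12 were positive with a median of -0.13. Gria4, the AMPA receptor subunit with fast kinetics that PV cells use, differed by 0.72 (SE 0.28) and was higher in 4 of 4 pools, and the kainate receptor subunit gene Grik1 differed by -1.71 (SE 0.43) and was lower in 4 of 4. Of 23 peptide and transmitter receptor genes 7 were positive, with a median of -0.90. The median was -0.08 without the cells at or above 100 CPM of Sst, Vip or Slc17a7, with both male pools left with 1 side only.

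Both lists of mitochondrial respiration genes had medians slightly above 0 and the glycolysis list did not, and none of their genes was called by edgeR. Of 42 nuclear genes of oxidative phosphorylation 35 had a positive difference (46.7% of all genes did), with a median of 0.13. By edgeR or DESeq2 0 were called, and 1 was higher at an unadjusted p under 0.05 by edgeR (2.09% of all genes). The median was above 0 in 16 of 19 settings and ran from -0.39 to 0.23. Cox5a, a cytochrome c oxidase subunit gene, differed by 0.39 (SE 0.15) and was higher in 4 of 4 pools, with medians of 716 and 535 CPM. All 13 mitochondrially encoded genes had a positive difference, with a median of 0.19, but only 1 was higher in every pool. Their median was 1.09 in the female P40 pool and -0.37, 0.08 and 0.00 in male P35, male P36 and female P42, and -0.10 in the fit without female P40. Their share of counts had a median of 1.67% in Pvalb-high and 1.16% in Pvalb-low cells, but 9 of the 18 Pvalb-high cells are of the female P40 pool. Within pools the mean difference in that share was 0.104 points (SD 0.382, n = 4 pools, exact permutation p = 0.875), lower in both male pools and higher in both female pools. Glycolysis genes were divided, with 9 of 20 positive and a median of -0.02, and Ldha, a lactate dehydrogenase subunit gene, was lower in Pvalb-high cells in 4 of 4 pools by -1.47 (SE 0.33). Of 22 early and activity genes 12 were positive with a median of 0.15. Gadd45b, related to Gadd45g, differed by 1.27 (SE 0.30) and Ier2 by 0.73 (SE 0.28), both higher in 4 of 4 pools. Hspa5, the chaperone of the endoplasmic reticulum, differed by 0.48 (SE 0.14), and ribosomal protein genes had 11 of 26 positive and a median of -0.02.

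**Figure D4:**
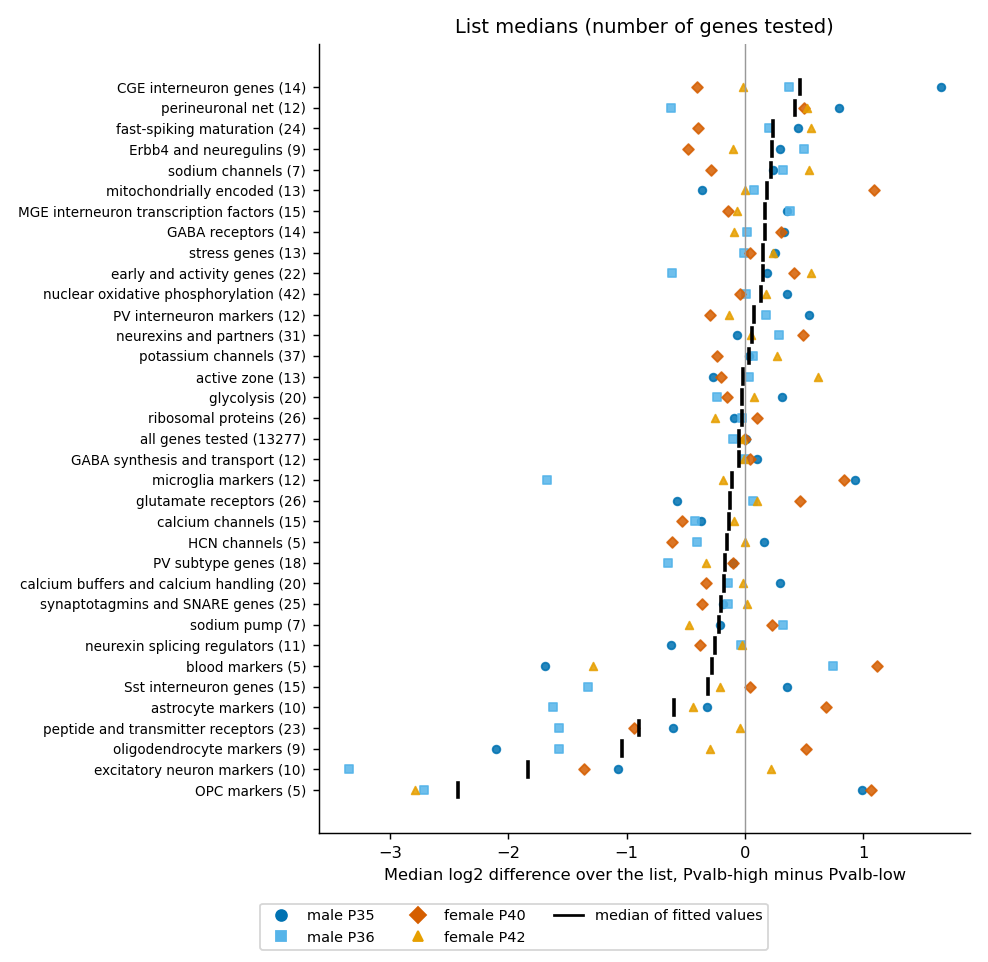
Median log2 difference over the tested genes of each list with at least 5 of them, apart from the choroid plexus list, Pvalb-high minus Pvalb-low: symbols are the medians in the 4 pools, black bars the medians of the fitted values, and numbers in parentheses the genes tested. Fitted medians run from -2.43 for oligodendrocyte precursor (OPC) markers to 0.46 for genes of caudal ganglionic eminence (CGE) interneurons, and the pools of most lists lie on both sides of 0.

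The perineuronal net is the matrix coat that surrounds many PV cells. Of its 12 genes tested 8 had a positive difference, with a median of 0.42 that became -0.17 without the male P35 pool. Hapln4, the link protein gene of this coat, was at 293, 198, 284 and 331 CPM in the Pvalb-high and 138, 140, 280 and 176 in the Pvalb-low sums, a log2 difference of 0.63 (SE 0.22). Tnr, which encodes tenascin-R, differed by 1.23 (SE 0.42), with 71.9% of its Pvalb-high counts in female P40 cell 3.

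Neurexins are presynaptic adhesion molecules that bind partners across the synapse, and their isoforms were counted in a table of their own. Of 31 neurexin and partner genes 16 had a positive difference, with a median of 0.06. In 4 of 4 pools 6 were higher (6.73% of all genes) and 2 lower (8.37% of all genes) in Pvalb-high cells. Nrxn3 was at 231, 309, 159 and 200 CPM in the Pvalb-high and 224, 107, 148 and 101 in the Pvalb-low sums, a log2 difference of 0.67 (SE 0.29), and 16 of 18 Pvalb-high cells were above the Pvalb-low median of 122. Nrxn2 was low on both sides, at medians of 9.83 and 19.0 CPM, and differed by -1.20 (SE 0.78). Among the partners, the receptor phosphatase gene Ptprd differed by 1.22 (SE 0.38), the postsynaptic adhesion gene Lrrtm1 by 1.48 (SE 0.47) and the neurexophilin gene Nxph1, whose product binds alpha-neurexins, by 0.43 (SE 0.15). Each was higher in 4 of 4 pools. For Lrrtm1 the medians per cell were 10.8 CPM in Pvalb-high, 22.6 in middle and 5.02 in Pvalb-low cells. Male P36 cell 3 held 43.2% of the Pvalb-high Lrrtm1 counts. Celf4, an RNA-binding protein gene in the list of splicing regulators, was lower in 4 of 4 pools by -0.65 (SE 0.19).

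The isoform table allowed 4 of 13 features of Nrxn2 and Nrxn3 to be compared, those with a summed value of at least 100 in both sides of every pool. The long alpha form made up 89.7%, 87.6%, 71.1% and 87.9% of Nrxn3 on the Pvalb-high and 77.3%, 77.8%, 92.3% and 27.4% on the Pvalb-low side. The mean difference was 15.3 percentage points (SD 33.8, n = 4 pools, exact two-sided permutation p = 0.5), and 0.28 points without the female P42 pool and 4.02 as a mean over cells. Splice site 4 of Nrxn3 was included in 99.6%, 100%, 99.4% and 99.0% of the Pvalb-high and 94.4%, 99.5%, 83.8% and 99.4% of the Pvalb-low values, a mean difference of 5.22 points (SD 7.31, n = 4 pools, exact permutation p = 0.25). It was 1.78 points without the female P40 pool and 8.72 as a mean over cells. Splice site 5 differed by 1.49 points (SD 30.9) and the alpha share of Nrxn2 by -0.21 points (SD 11.8), each with an exact permutation p of 1 over 4 pools. Adjusted over the 4 features every p was 1.

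The membrane labels were not used to choose the cells, and rm and cm differed in 1 direction in every pool. Labelled rm was 88 to 486 with a median of 233 in the 18 Pvalb-high cells and 183 to 805 with a median of 372 in the 15 Pvalb-low cells that have it, and 256 in the middle cells. By common usage rm is membrane resistance and cm membrane capacitance, but the labels state neither a definition nor a unit. Pool means of rm were 296, 220, 228 and 201 on the Pvalb-high and 339.5, 356, 654 and 472 on the Pvalb-low side. The mean difference was -219 (SD 167, n = 4 pools, lower in 4 of 4, exact two-sided permutation p = 0.125, 0.1875 adjusted over 3 labels). Labelled cm had medians of 50 and 30, with 36.5 in the middle cells, and pool means of 54.2, 70, 42.9 and 56.7 against 37.5, 40.75, 18 and 28.25. Its mean difference was 24.8 (SD 5.73, n = 4 pools, higher in 4 of 4, exact permutation p = 0.125, adjusted 0.1875). With 4 pools 0.125 is the smallest p this test can give, so it cannot pass 0.05, and the male P36 Pvalb-high and female P40 Pvalb-low means are each 1 cell. Labelled vrest had medians of -57.5 and -59 and a mean difference of 4.13 (SD 5.23, n = 4 pools, exact permutation p = 0.375). With the 9 highest and 9 lowest cells only 1 pool had rm on both sides, and its difference was 20.

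**Figure D5:**
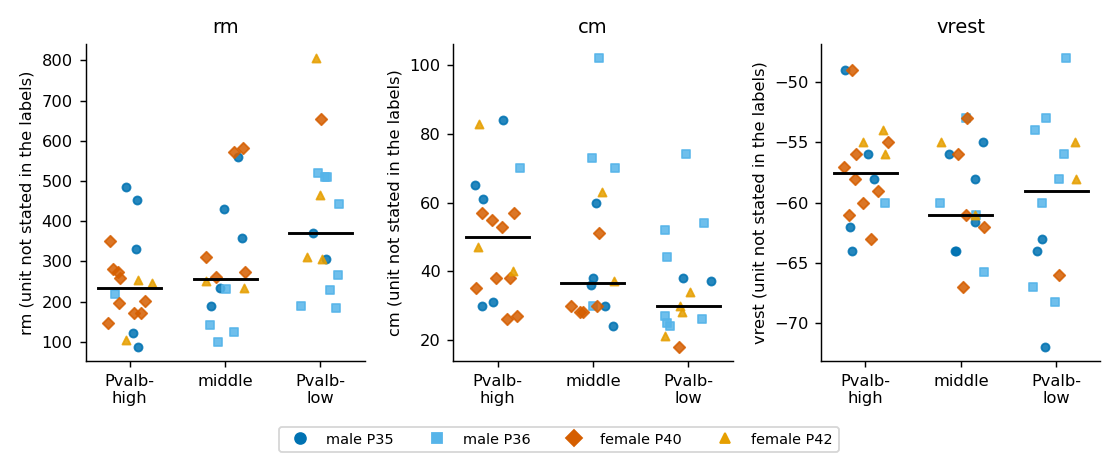
Labels rm, cm and vrest per cell (units not stated in the labels) in Pvalb-high, middle and Pvalb-low cells, with symbols for the pools and bars for medians. The sides overlap in all 3 labels; rm medians are 233, 256 and 372 and cm medians 50, 36.5 and 30 from high to low.

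Across single cells, which share animals and are given as a description, Pvalb and rm had a Spearman correlation of -0.38 over 49 cells, -0.16 in 25 male and -0.62 in 24 female cells. For cm it was 0.28 and for vrest 0.22 over 49 cells each.

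Among 11380 genes with a count in at least 40 of the 54 cells, the Spearman correlation with Pvalb had a median of 0.01 and a central 95% between -0.29 and 0.30. Ttc1, which encodes a tetratricopeptide repeat protein, was highest at 0.65, followed by Ift27 and by Htra1 at 0.50. The genes named here were picked by that correlation over the same cells. Their separation of the sides therefore follows in part from the choice. Ttc1 was at 109, 113, 173 and 147 CPM in the Pvalb-high and 64.1, 71.1, 102 and 84.4 in the Pvalb-low sums, a log2 difference of 0.75 (SE 0.22). All 18 Pvalb-high cells were above its Pvalb-low median, but its correlation among the middle cells was -0.26. Syndig1 at -0.53 and Tppp at -0.52 were among the lowest. Syndig1, which encodes a synaptic protein that binds AMPA receptors, was at 11.1, 0.882, 0.313 and 4.82 CPM against 39.4, 43.4, 37.3 and 31.7, without overlap. Tppp, which encodes a tubulin polymerization promoting protein, had medians of 94.3 and 191 CPM, and 17 of 18 Pvalb-low cells were above its Pvalb-high median. Among the middle cells the correlation of Ift27 was 0.72, while those of the other four lay between -0.26 and 0.18.

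No pair of cells had identical counts, and depth differed between the sides. Pvalb-high cells had 2.05 to 52.3 M counts with a median of 8.90 and Pvalb-low cells 5.84 to 28.9 M with a median of 14.4, and the rank correlation of Pvalb with the total was -0.29, 0.00 in male and -0.55 in female cells. Genes detected had medians of 12911.5 and 13093, and 11312 and 11390 after each cell was thinned to 2.05 M counts. Over the 4 pools the mean difference in total was -0.56 M (SD 7.84, exact permutation p = 0.875). By pool it was -2.69, 10.5, -2.12 and -7.94 M, and the male P36 value rests on 1 Pvalb-high cell of 23.3 M counts. Female P40 cell 3, with 52.3 M counts, made up 49.0% of its sum, and the largest Pvalb-low cell 28.2% of its own. The part of depth in the gene differences was not tested beyond the thinned sums, which called 1 gene.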

How the data were processed

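The data are single-cell RNA libraries of 54 cells of 58, each made from the cytosol of 1 labelled cell; the 4 cells that failed the labelled quality control were left out. The authors deposited raw counts per gene, made with STAR on GRCm38 per the submitters' processing notes, which also name edgeR. The counting tool, annotation and strand setting were not given in the sources used here, so overlapping and antisense genes may share reads, and no molecular identifiers are named, so amplified copies were counted. The deposited neurexin isoform table holds a signal per isoform or junction whose unit is not stated, and shares were computed from sums of that signal. A deposited table of normalized values was not used. The labels give no unit for vrest, rm or cm.

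Cells were ranked by Pvalb CPM and counts were summed per side in the 4 pools of equal sex and age (23.3 to 107 M counts per sum). Sums were tested with edgeR 4.0.16 in R 4.3.3 (TMM scaling, quasi-likelihood test, pool as block, Benjamini-Hochberg adjustment) over 13277 of 25648 genes that had a count in at least 10 cells and passed edgeR's expression filter; Pvalb was left out. SE is the log2 difference over the root of F. Labels, quality measures and isoform shares were compared by exact sign-flip permutation over 4 pools. DESeq2 1.42.0 and limma 3.58.1 (on log2(CPM + 1)), other filters and scaling, thinned counts, other cutoffs, left-out pools and left-out cells were alternatives. The sum test was tested on simulated data of the same size.

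Named genes are those past the threshold (0 here); the 8 of smallest p per direction with 1 sign in every pool; from each list the 2 of highest level and the 2 of smallest p; the 3 of highest and lowest rank correlation with Pvalb; and a set of interneuron and other cell type genes. Some genes that this rule names are not reported here. The choroid plexus markers and single cells named were chosen after their values were seen. The members and lists were chosen with earlier results of these data known. Promoters are from RefSeq (GRCm38.p6), gene positions from GENCODE vM21.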

Additional observations from a re-analysis of the deposited data

Results flagged for a closer look

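In 2 quality measures both male pools differed one way between Pvalb-high and Pvalb-low cells and both female pools the other way; this contrast was not tested. For genes detected after thinning to 2.05 M (1000000) counts, the differences were 243 and 68.1 in the male pools P35 and P36 and -263 and -157 in the female pools P40 and P42, and the male mean exceeded the female mean by 366 genes. For the mitochondrial share of counts they were -0.184, -0.0692, 0.664 and 0.00339 percentage points in the same order, and the male minus female difference of means was -0.46 points. The female P42 difference in that share is close to 0, and the male P36 values of both measures rest on 1 Pvalb-high cell.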

How the results depend on the processing

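The count of genes past edgeR's threshold was 0, and 268 by DESeq2, 1 by limma (Htra1), 1 with thinned counts (Sst), 0 to 1 with a pool left out (Vip without female P40), 11 between the 9 highest and 9 lowest cells and 1 without cells at or above 100 CPM of Sst, Vip or Slc17a7 (Ttr). The cause of these differences was not tested. The count for the difference between sexes was 0, and 0 to 2 with a pool left out. The 9 against 9 setting leaves 2 pools with both sides for genes, male P36 with 1 Pvalb-high cell and female P40 with 1 Pvalb-low cell. It leaves 1 pool for rm, whose difference was then 20. The setting without cells at or above 100 CPM of Sst, Vip or Slc17a7 leaves neither male pool with both sides. The mitochondrial share difference was -0.0321 points from medians. With a pool left out, the alpha share of Nrxn2 differed by -5.34 to 4.17 points and Nrxn3 splice site 5 by -13.1 to 10.3, and by -0.673 as a mean over cells.

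Signs of single genes turned as follows. Between the 9 highest and 9 lowest cells the log2 differences were 0.42 for Gaa, -0.22 for Syt2, 0.19 for Npy, 0.10 for Tac1, -0.15 for Cox5a, -0.26 for Ier2 and 1.04 for Enpp2. Without the cells at or above 100 CPM of Sst, Vip or Slc17a7 they were 1.50 for Sst, -1.66 for Vip, 0.052 for Gad1 and 0.93 for Slc17a7, which was 0.52 without the Slc17a7 cells alone. Cells were removed there by Sst, Vip or Slc17a7 level, so the turned signs of these markers follow in part from the removal. Gad1 was also at 0.078 by limma, 0.035 thinned, -0.29 to 0.16 with a pool left out (0.04 and 0.02 without female P40 or female P42), 0.12 between 27 and 27 cells and 0.16 without the largest cells. Tac1 was at -0.52 to 0.18 with a pool left out. The 2 settings that remove cells by Sst, Vip or highest Sst were chosen after seeing the data. Cells or animals could not be paired across the sides because the replicate numbers only name cells. The sides were compared within pools: the pool was the block in the main test, and 0 genes passed without it.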
